A study of Mus musculus with 8 samples.

Results

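The cells described here are the tumour cells of 2 brain and 3 liver allografts of N2N1G, a mouse small cell lung cancer line. A cell was taken as a tumour cell when it had at least 500 detected genes, at most 10% mitochondrial molecules (unique molecular identifiers, UMIs) and at least 0.2% of its UMIs from eGFP, the fluorescent reporter, and Mycl, a Myc family gene. By this rule 19501 of the 22202 cells deposited for these 5 libraries were tumour cells, of 34719 in the series of 38460 cells. They numbered 2418 and 4060 in brain replicates 1 and 2 and 4114, 4189 and 4720 in the liver libraries. Cultured cells had been placed in the brain by direct injection or sent to the liver through the tail vein. Tumours were harvested 3 weeks later, and viable single cells were sorted and measured by droplet-based 3' RNA sequencing. Route and organ differ together and cannot be told apart, and all cells descend from 1 line. The labels number the allografts but do not say that each came from a separate mouse, so the p-values measure the spread between these libraries. A further 3 libraries from subcutaneous tumours of the same line, also injected directly, entered the statistical model to help estimate that spread.

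Small cell lung cancer is a neuroendocrine cancer: its cells carry secretory granules and express transcription factors of neural lineages, and it spreads early to liver and brain. Interferons, secreted by infected or activated cells, act through a cell surface receptor to switch on antiviral genes and the machinery that shows peptides on MHC class I molecules. Many small cell tumours carry little MHC class I on their surface.

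The cells carried the markers of their label. All 12 neuroendocrine small cell markers were detected in both sites, with a summed level of 4647 and 4758 CPM in brain and 4810 to 5117 CPM in liver (CPM, a gene's UMIs per 1000000 of the library). Tumour cells had a median of 7972 and 8409 UMIs in the brain libraries and 9250 to 10542 in the liver libraries, and summed to 21689091 to 49391416 UMIs per library. The share of kept cells that met the rule was 71.6% and 92.0% in brain and 96.1% to 98.6% in liver. Mycl and eGFP chose the cells, so their levels are a description only: Mycl stood at 5163 and 4158 CPM in brain and 7838, 7562 and 7400 CPM in liver, and eGFP at 3360 and 3503 CPM in brain and 1605, 1950 and 2322 CPM in liver. RNA of host cells was present in libraries of both sites. Of 8 tested hepatocyte markers 5 were lower in brain and 2 higher. Among the lower ones, Alb was at 0 CPM in both brain libraries and 8.65, 0.753 and 2.85 CPM in liver. Erythroid markers summed to 1.75 and 11.3 CPM in brain and 4.01, 852 and 8.53 CPM in liver. Of 12 macrophage markers 8 were higher in brain, none of the 12 was at 0 in either site, and their summed level in tumour cells was 82.8 to 545 CPM in brain and 6.56 to 15.9 CPM in liver. Of 7 astrocyte markers all 7 were higher, with a sum of 64.4 to 86.4 CPM in brain and 17.5 to 21.5 CPM in liver. Tumour cells with at least 2 UMIs of macrophage, microglia or neutrophil markers made up 65.1% and 17.4% of brain replicates 1 and 2 and 4.91% to 7.71% of the liver libraries. Pairs of the 5 libraries shared 20 to 37 cell barcodes.

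Gene expression of the summed tumour cells differed broadly between the sites. Of 13931 genes tested with the quasi-likelihood test of edgeR, 3032 (21.8%) had a Benjamini-Hochberg adjusted p under 0.05, with 1839 higher (13.2%) and 1193 lower (8.56%) in brain. A difference of at least 2-fold was reached by 1522 genes (10.9%), of which 1181 were higher and 341 lower. The brain and liver libraries did not overlap for 53.2% of all genes tested. This held for 3031 of the 3032 called genes, so a lack of overlap adds no support to a call. Genes higher in brain were weakly expressed, with a median of 4.55 CPM, and lower genes more strongly, with a median of 26.2 CPM. With library totals in place of scaling factors, the median of all genes moved up by 0.115 on the log2 scale and the split became 2333 higher and 716 lower. Leaving out 1 library lowered the count of 3032 to 1112 (brain replicate 1), 1271 (brain replicate 2), 1535 (liver replicate 2) or 1726 (liver replicate 1), and raised it to 4557 without subcutaneous replicate 1. That subcutaneous library lay between the brain libraries and the rest on the first principal component, at 12.9 where brain scored 51.6 and 41.0 and the other 5 libraries -21.9 to -20.7. Of 160 genes chosen for naming, 77 kept their call whichever of the 8 libraries was left out. Those named with a test below are among the 77 unless a library is given without which the call was lost.

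**Figure D1:**
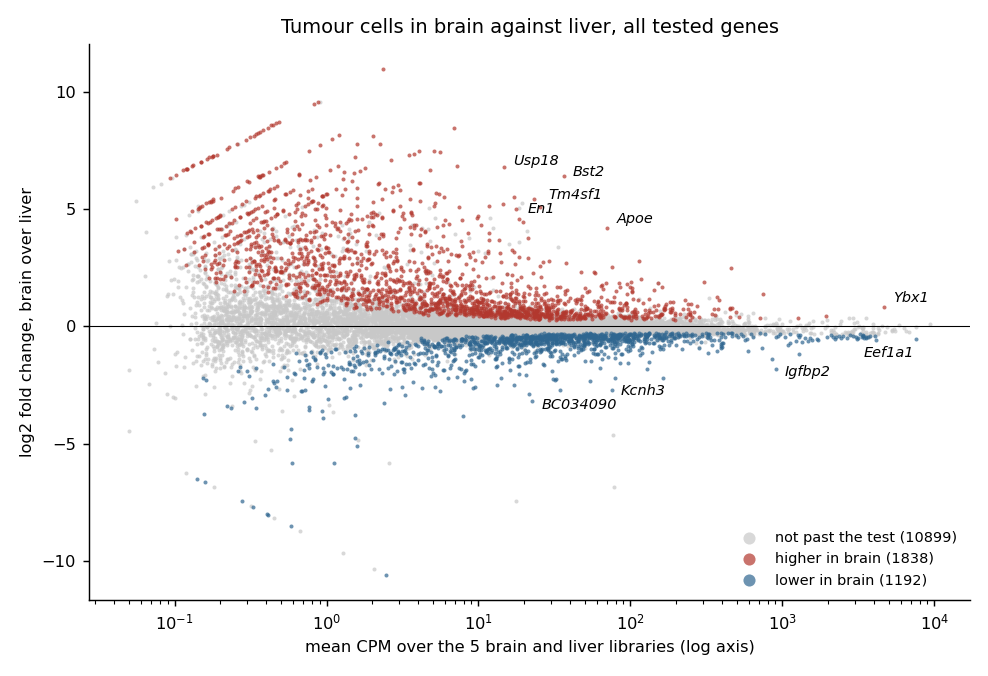
Each point is 1 of the tested genes, other than eGFP and Mycl, with its mean CPM over the 5 brain and liver libraries on a log axis and its log2 fold change of brain over liver. Genes past the test are coloured by direction, and the higher genes (red) reach larger fold changes and lie at lower mean levels than the lower genes (blue).

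Genes that differed were not spread evenly over the genome. To describe this, the 7865 positioned genes with a mean of at least 10 CPM, eGFP and Mycl left out, were cut into 304 windows of 25 neighbouring genes. The median log2 fold change of a window lay between -0.33 and 0.287 in all but 8 of them. These 8 windows formed 3 stretches, which were picked by these values and are therefore given without a test. Positions are on GRCm38. The first stretch, chr4:116807723-123684360, held 50 genes, of which 31 were higher in brain and 5 lower, with a median of 0.63. Mycl lies inside this stretch and is not counted in it. The second, chr4:154056253-155907251 near the end of the chromosome, held 25 genes, of which 14 were lower and 0 higher, with a median of -0.53. The third, chr8:70905932-94601997, held 125 genes, of which 88 were higher and 3 lower, with a median of 0.62. Of the genes outside the stretches 6.97% were higher and 10.9% lower.

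Each stretch was shifted alike in both brain libraries. Relative to the liver mean, the median gene of the chromosome 8 stretch stood at 0.56 and 0.68 on the log2 scale in brain replicates 1 and 2, while the liver libraries stood between -0.0028 and 0.0117. The first chromosome 4 stretch stood at 0.55 and 0.58 in brain and between -0.0204 and 0.0051 in liver. The second stood at -0.52 and -0.61 in brain and between -0.004 and 0.0435 in liver. In no stretch did these medians of the brain and liver libraries overlap. The stretches were picked by this difference, so that is a description only. Subcutaneous replicate 1 stood at 0.14, 0.0977 and -0.43 in the same order, on the side of the brain libraries each time. Ybx1 on chromosome 4 encodes an RNA-binding protein that packages mRNA. It was at 6404 and 6760 CPM in brain and 3665, 3355 and 3127 CPM in liver (log2 fold change 0.84, SE 0.15, edgeR adjusted p = 0.0061). Its sign was reversed among the low-share cells defined below. Junb on chromosome 8, a subunit of the AP-1 transcription factor, was at 1063 and 768 CPM in brain and 149, 127 and 175 CPM in liver (2.49, SE 0.19, edgeR adjusted p = 0.00034). Neither gene overlapped between sites. Within the chromosome 4 stretch the direction was mixed. Rlf, Zmpste24 and Smap2, picked as its largest increases, had log2 fold changes of 2.33, 2.31 and 2.28, whereas Mfsd2a, Trit1 and Pabpc4, picked as its largest decreases, had -1.58, -1.39 and -1.17.

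**Figure D2:**
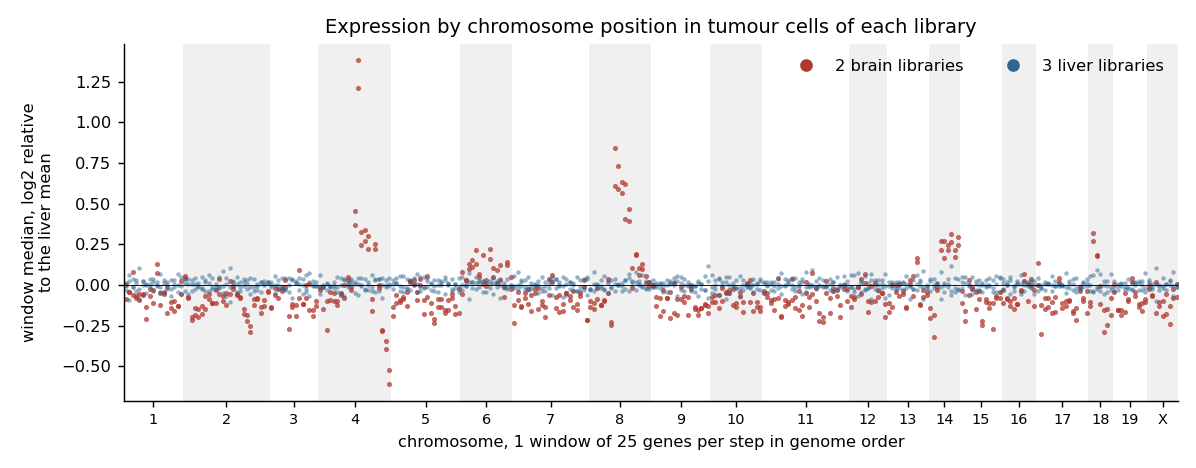
Each point is the median, over 25 neighbouring genes, of a library's log2 level relative to the mean of the liver libraries, with windows in genome order and chromosomes shaded in turn. The brain libraries (red) leave the band of the liver libraries (blue) on part of chromosome 4, at the end of chromosome 4 and on part of chromosome 8, and both brain libraries do so together.

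In single cells the 2 raised stretches were high in a part of the brain cells. Among cells with at least 3000 UMIs, the share of a cell's UMIs from the genes of the chromosome 8 stretch had 1 peak in the liver libraries and 2 in the brain libraries, and so did the share from the first chromosome 4 stretch. Limits were drawn between the peaks after seeing these distributions, at 2.5% for the chromosome 4 stretch and 0.25 percentage points less for that of chromosome 8. Cells at or above both are called high-share cells here, and cells below both low-share cells. High-share cells were 644 of 2262 in brain replicate 1 (28.5%, exact 95% binomial interval 26.6 to 30.4) and 1382 of 4012 in brain replicate 2 (34.4%, 33.0 to 35.9). They were 0.123%, 0.0737% and 0.198% of the liver libraries, a total of 5, 3 and 9 cells. In the subcutaneous libraries they were 8.94%, 0.688% and 0.783%. The intervals cover counting error only, and 2.11% to 6.46% of the cells of the brain and liver libraries lay within 0.25 percentage points of a limit. The high-share class is a range of expression and not a named cell type, and DNA copy number was not measured.

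The 2 kinds of brain cells differed in all 3 stretches. For the 2 raised stretches the limits set this difference, so those values are a description only. The end of chromosome 4 was picked as lower in brain, where high-share cells were more frequent, so its values are a description too. The median share of UMIs from the chromosome 8 stretch was 3.57% and 3.41% in high-share cells of brain replicates 1 and 2 and 1.21% in low-share cells of each, against 1.10% to 1.16% in low-share liver cells. The median share from the end of chromosome 4, which the limits did not use, was 0.0943% and 0.0935% in high-share cells and 0.257% and 0.241% in low-share cells of brain, against 0.282% to 0.293% in low-share liver cells. In the fit of low-share cells described next, the median log2 fold change was 0.0575 and 0.0319 for the raised stretches of chromosomes 4 and 8. It was -0.24 for the end of chromosome 4. The limits had left cells with high shares of the raised stretches out of this fit. High-share cells were not deeper, with a median of 7728 and 7374.5 UMIs against 8706 and 9087. The genes of the cell rule are given as a description: eGFP was at 6349 and 6039 CPM in high-share and 2225 and 2319 CPM in low-share brain cells, and Mycl at 3338 and 2655 CPM against 5934 and 4868 CPM.

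**Figure D3:**
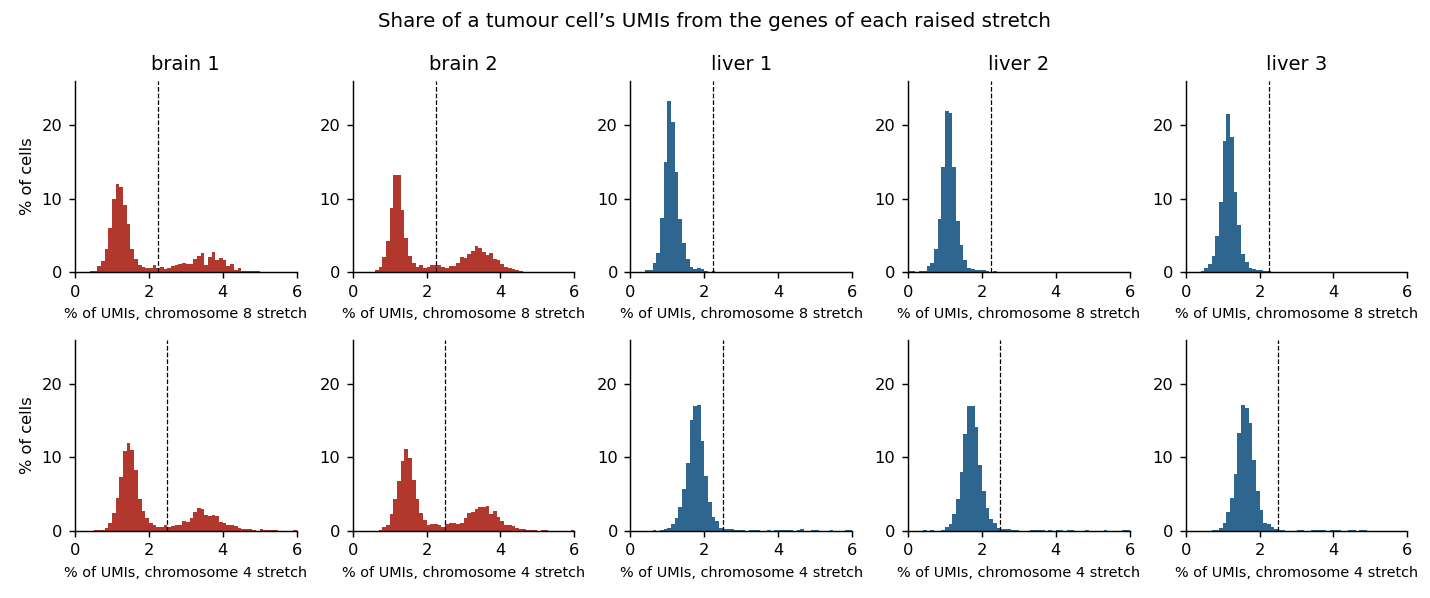
Histograms of the percent of a tumour cell's UMIs that came from the raised chromosome 8 stretch and the raised chromosome 4 stretch, in cells with at least 3000 UMIs of each brain and liver library, with the limits as dashed lines. Brain libraries show a second group of cells to the right of the limit, and liver libraries show nearly none.

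Fewer genes differed when only low-share cells were compared. These cells, 1553 and 2501 in brain and 3946 to 4461 in liver, were summed and fitted with the low-share cells of the other libraries, a setting added after seeing the data. Of 13694 genes 1196 passed (8.73%), with 788 higher (5.75%) and 408 lower (2.98%), where a fit of all cells with at least 3000 UMIs gave 3056 genes. Of the 1839 genes higher in all tumour cells, 725 were still higher in low-share cells, with 137 not tested there. Of the 1193 lower genes 386 were still lower, with 0 not tested. Among genes of at least 10 CPM, 263 of the 654 higher genes were at least 2-fold higher in high-share than in low-share cells in both brain libraries (40.2%), as were 4.38% of all 7868 such genes. Of the 860 lower genes 234 were at least 2-fold lower there (27.2%), as were 5.16% of all. Since the stretches were picked from the comparison of brain with liver, these shares are a description. Free RNA of high-share cells can reach the droplets of low-share cells, and its part in these values was not tested.

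Among called genes of at least 10 CPM whose sites did not overlap, and with genes of the host marker lists left out, the largest increases were those of Usp18, Bst2, Foxd1, Tm4sf1, En1, Clca3b, Hoxd9, Apoe, Hoxd11, H2-K1, Hoxd8 and Edn3. En1, a homeobox factor of the midbrain and hindbrain, was at 44.8 and 42.4 CPM in brain and 1.86, 1.76 and 1.36 CPM in liver (4.59, SE 0.93, edgeR adjusted p = 0.016), a call lost without liver replicate 1 or liver replicate 2. Tm4sf1, a membrane protein with 4 membrane-spanning segments, was at 48.5 and 73 CPM in brain and 1.94, 1.32 and 1.71 CPM in liver (5.08, SE 0.93, edgeR adjusted p = 0.012). Clca3b, of a family of calcium-activated chloride channel regulators, was at 50.1 and 42.4 CPM in brain and 1.96, 1.78 and 2.16 CPM in liver (4.44, SE 0.31, edgeR adjusted p = 0.00023). For each, both brain libraries were far above every liver library. Edn3, the ligand endothelin 3, was at 30.4 and 31.3 CPM in brain and 2.39, 1.78 and 2.55 CPM in liver (3.67, SE 0.32, edgeR adjusted p = 0.00052). Within the brain these genes lay mostly in high-share cells, with En1 at 148 and 119 CPM in high-share and 4.79 and 6.02 CPM in low-share cells, Tm4sf1 at 158 and 213 against 5.52 and 7.19 CPM, Clca3b at 169 and 125 against 4.79 and 3.67 CPM and Edn3 at 97.3 and 90.6 against 3.26 and 3.79 CPM in the same order. All 4 still passed in low-share cells, with log2 fold changes of 3.99 for En1, 4.08 for Tm4sf1, 2.04 for Clca3b and 2.89 for Edn3.

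Apoe, a lipid carrier that microglia and astrocytes also make in quantity, followed another pattern. Apoe was at 239.8 and 87.2 CPM in brain and 8.79, 7.82 and 7.94 CPM in liver (4.20, SE 0.68, edgeR adjusted p = 0.0072), with brain replicate 1 far above brain replicate 2. Its level was 169.6 and 65.5 CPM in high-share and 248.7 and 96.2 CPM in low-share cells of the brain, the reverse of the genes above. When the RNA of cells that missed the rule was scaled by macrophage and microglia markers, host RNA of that kind equalled 50.7% and 26% of the Apoe UMIs of the brain libraries. After those counts were subtracted, Apoe still passed at 4.06, edgeR adjusted p = 0.0021. The scaling used no astrocyte markers, so the part of astrocyte RNA in Apoe was not tested.

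By the same choice, the largest decreases were those of BC034090, Cd164l2, Kcnh3, Fbxo2, Tmprss4, Aldh1a7, Tspan1, Sema3c, Bpifa1, Tnfrsf12a, Calb1 and Ptgr1. Kcnh3, a potassium channel of the ether-a-go-go family, was at 16.6 and 20.4 CPM in brain and 132, 118 and 89.3 CPM in liver (-2.73, SE 0.32, edgeR adjusted p = 0.0015). BC034090 was at 3.55 and 4.75 CPM in brain and 38.4, 35.6 and 30.5 CPM in liver (-3.17, SE 0.33, edgeR adjusted p = 0.00088). Both brain libraries lay below every liver library for each. These genes were low in both kinds of brain cells: Kcnh3 was at 7.94 and 7.85 CPM in high-share and 19.8 and 26 CPM in low-share cells, and passed in low-share cells at -2.39, adjusted p = 0.0045. Others that passed there were BC034090 (-2.67), Cd164l2 (-2.39), Fbxo2 (-2.46), the serine protease Tmprss4 (-2.003), Tnfrsf12a, the receptor of the cytokine Tweak (-1.88), Tspan1 (-1.81) and the semaphorin Sema3c (-1.77). In all cells Tspan1 lost its call without brain replicate 1, Sema3c without brain replicate 1 and Fbxo2 without brain replicate 2. Aldh1a7 lost it without brain replicate 1, brain replicate 2 or liver replicate 2. Bpifa1 did so without brain replicate 1, brain replicate 2 or subcutaneous replicate 2. Calb1 did so without brain replicate 1 or brain replicate 2, and Ptgr1 without any 1 of the 5 brain and liver libraries. An abundant lower gene was Igfbp2, a secreted binder of insulin-like growth factors, at 401 and 374 CPM in brain and 1249, 1210 and 1278 CPM in liver (-1.80, SE 0.26, edgeR adjusted p = 0.0027). It was at 32.5 and 26.9 CPM in high-share and 546 and 530.2 CPM in low-share cells, and passed in low-share cells at -1.30, adjusted p = 0.015.

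**Figure D4:**
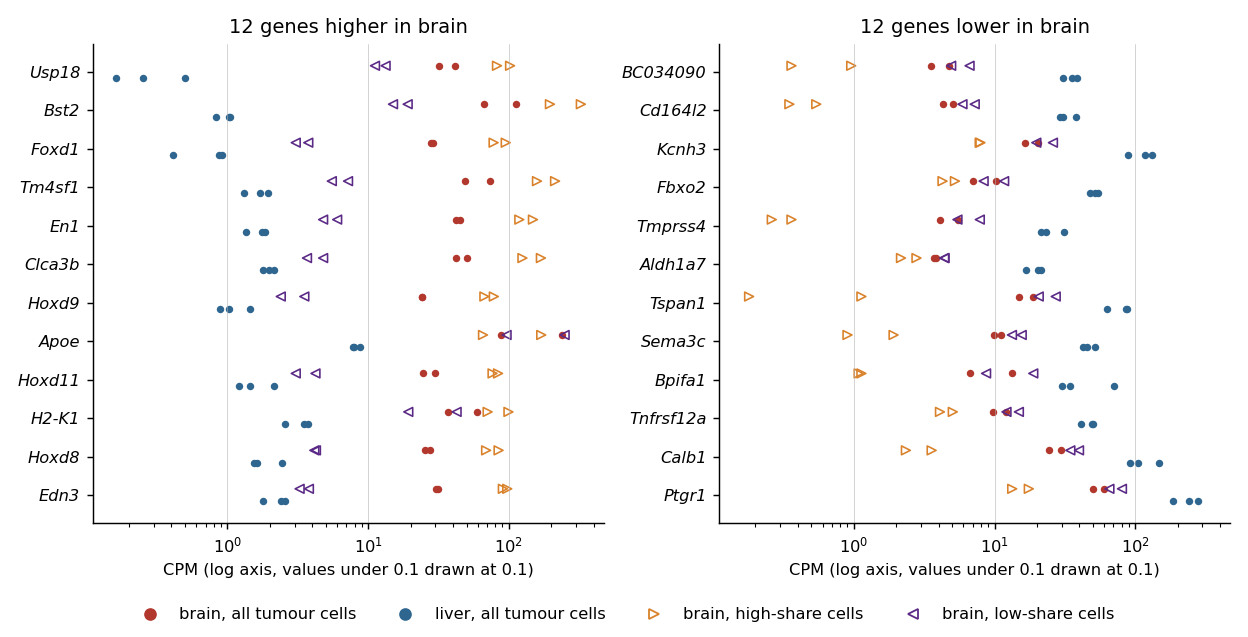
CPM on a log axis of the 12 genes with the largest increases and the 12 with the largest decreases in brain, genes of the host marker lists left out, for all tumour cells of each brain and liver library and for high-share and low-share cells of each brain library. For all higher genes shown but Apoe the high-share cells lie above the low-share cells of both brain libraries, and the low-share brain cells lie on the same side of the liver libraries as the whole.

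Interferon-stimulated genes were higher in brain as a group. Of 47 tested, 38 were higher and 0 lower, where 13.2% and 8.56% of all genes were, and the median log2 fold change was 2.53 against 0.0012 over all genes. Antiviral effectors led, with 26 of 31 higher and a median of 4.75. The interferon-stimulated response element was searched as GAAA, any 2 bases, GAAA, on either strand and with overlaps allowed, in promoters from 250 bases before to 50 after the start (RefSeq, GRCm38.p6). It stood in 10 of 23 effectors with a promoter (43.5%), 14 of 37 genes of the whole list (37.8%) and 5 of 17 genes of the MHC class I list (29.4%), against 3.66% of 10751 tested genes and 3.99% of 27025 genes. The promoters of 4 higher genes that hold it, chosen after their values were seen, are given 5′ to 3′ on the strand of the gene, with the motif or its reverse complement in capitals. They are Ifit1 (chr19:34640639-34640938, plus strand), Bst2 (chr8:71537423-71537722, minus), Isg15 (chr4:156200769-156201068, minus) and B2m (chr2:122147437-122147736, plus). Ifit1 has 2 matches, Bst2 has 2 and Isg15 has 3 that overlap, and B2m has 1.
Ifit1: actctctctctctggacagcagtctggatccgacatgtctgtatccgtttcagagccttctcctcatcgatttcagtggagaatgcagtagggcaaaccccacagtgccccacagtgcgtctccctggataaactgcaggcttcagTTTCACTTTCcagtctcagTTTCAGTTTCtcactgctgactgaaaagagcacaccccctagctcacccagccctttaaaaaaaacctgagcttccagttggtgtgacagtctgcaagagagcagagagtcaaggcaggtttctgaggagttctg
Bst2: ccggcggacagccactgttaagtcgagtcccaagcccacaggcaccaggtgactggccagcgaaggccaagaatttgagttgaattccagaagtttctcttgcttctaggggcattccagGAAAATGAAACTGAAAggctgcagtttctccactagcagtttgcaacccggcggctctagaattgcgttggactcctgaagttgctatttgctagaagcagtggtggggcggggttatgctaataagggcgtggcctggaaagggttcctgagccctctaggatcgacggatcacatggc
Isg15: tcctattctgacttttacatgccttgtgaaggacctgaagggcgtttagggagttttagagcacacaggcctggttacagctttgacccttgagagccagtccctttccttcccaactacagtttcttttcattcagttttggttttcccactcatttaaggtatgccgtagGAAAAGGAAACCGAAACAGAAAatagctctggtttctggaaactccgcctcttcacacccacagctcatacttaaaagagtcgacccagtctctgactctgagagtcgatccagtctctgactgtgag
B2m: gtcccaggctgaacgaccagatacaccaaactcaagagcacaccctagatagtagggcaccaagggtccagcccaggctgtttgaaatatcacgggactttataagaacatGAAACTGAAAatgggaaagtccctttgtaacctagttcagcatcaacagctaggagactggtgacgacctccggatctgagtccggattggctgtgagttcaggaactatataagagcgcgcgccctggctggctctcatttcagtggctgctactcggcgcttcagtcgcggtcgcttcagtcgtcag

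The effectors summed to 933 and 983 CPM in brain and 519, 583 and 588 CPM in liver, where Ifitm2 and Ifitm3, which did not pass, made up most of the sum. Usp18, a protease that removes the ubiquitin-like Isg15 from proteins and dampens the interferon receptor, was at 31.7 and 41.2 CPM in brain and 0.162, 0.251 and 0.496 CPM in liver (6.80, SE 0.40, edgeR adjusted p = 0.00015). Bst2, or tetherin, which holds budding virus at the cell surface and lies in the chromosome 8 stretch, was at 66.5 and 113 CPM in brain and 0.83, 1.02 and 1.04 CPM in liver (6.43, SE 0.92, edgeR adjusted p = 0.0054). Neither gene overlapped between sites. Ifit1, which binds foreign RNA caps, was at 6.96 and 10.5 CPM in brain and 0, 0.0418 and 0.108 CPM in liver. Isg15, the ubiquitin-like modifier, was at 7.65 and 5.43 CPM in brain and 0.0607, 0.335 and 0.173 CPM in liver. All 4 were higher in both brain libraries than in any liver library. Among sensors, receptors and transcription factors 12 of 16 were higher, with a median of 1.01. Irf7, the factor that amplifies interferon production, was at 13.5 and 13.1 CPM in brain and 0.648, 0.857 and 1.06 CPM in liver (3.84, SE 0.44, edgeR adjusted p = 0.0012).

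Both kinds of brain cells were above liver in these genes. Usp18 was at 82.3 and 102 CPM in high-share and 13.3 and 11.2 CPM in low-share cells, and Bst2 at 196 and 324 against 19.1 and 15 CPM. In low-share cells 27 of 46 tested members were higher and 0 lower, against 5.75% and 2.98% of all genes, with a median of 1.79. Usp18 passed there at 5.29, adjusted p = 0.00029 and Irf7 at 3.17, adjusted p = 0.0075. Host RNA, scaled as above, equalled 3.03% and 0.661% of the Usp18 UMIs, 31.3% and 6.54% of those of Irf7 and 62.6% and 19.2% of those of Isg15 in brain replicates 1 and 2. After its subtraction 35 members were higher and 1 lower, and without cells that held 2 or more host marker UMIs 35 were higher.

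MHC class I genes were higher with them. Of 18 tested, 17 were higher (median 2.51) and 0 lower, a count that became 11 without brain replicate 1. All 9 heavy and light chains were higher. Over all genes 13.2% were higher and 8.56% lower. H2-K1, a classical heavy chain, was at 59 and 36.8 CPM in brain and 2.57, 3.72 and 3.52 CPM in liver (3.76, SE 0.52, edgeR adjusted p = 0.0034). B2m, the common light chain, was at 225 and 121 CPM in brain and 47, 50.8 and 51.7 CPM in liver (1.68, SE 0.28, edgeR adjusted p = 0.0056). Neither overlapped between sites, and both were higher in brain replicate 1 than in brain replicate 2. Of the peptide supply genes 8 of 9 were higher, among them the immunoproteasome subunit Psmb8 at 16.8 and 11.9 CPM in brain and 0.081, 0.523 and 0.259 CPM in liver (5.52, SE 1.35, edgeR adjusted p = 0.028), a call lost without brain replicate 1, brain replicate 2, liver replicate 1, liver replicate 2 or liver replicate 3. Scaled host RNA equalled 34.1% and 10.5% of the brain UMIs of H2-K1, 46.7% and 14.7% of B2m and 51.6% and 18.6% of Psmb8, and after its subtraction 17 members were higher. In low-share cells 6 of 18 were higher and 0 lower, against 5.75% and 2.98% of all genes. Of the 9 peptide supply genes 1 was higher there. Among the 6 were H2-K1 (3.29, edgeR adjusted p = 0.02) and B2m (1.74, edgeR adjusted p = 0.014). H2-K1 was at 99.3 and 70.6 CPM in high-share and 42.5 and 19.3 CPM in low-share cells, whereas B2m, at 197 and 119.7 against 232 and 118 CPM, was alike in both kinds. Reads of the near-identical H2 genes could have been divided between copies in counting.

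Neuroendocrine genes were higher more often than lower. Of the granule proteins and peptides 10 of 25 were higher and 0 lower (median 0.46), and of the lineage transcription factors 6 of 22 were higher and 1 lower (0.41), next to 13.2% and 8.56% of all genes. The list had 16 higher members in all, which became 9 without brain replicate 1 or brain replicate 2 and 10 without liver replicate 2. Pcsk1, the convertase that cuts prohormones, was at 72.2 and 83 CPM in brain and 9.54, 10.1 and 13 CPM in liver (2.73, SE 0.43, edgeR adjusted p = 0.0054). Resp18, a granule protein, was at 45 and 52.9 CPM in brain and 10.1, 11.2 and 10.3 CPM in liver (2.10, SE 0.16, edgeR adjusted p = 0.00034). The libraries of each site were close together and the sites apart. Both genes lay mostly in high-share cells, with Pcsk1 at 218 and 204 CPM in high-share and 16.6 and 25.7 CPM in low-share cells and Resp18 at 124 and 139 against 13.8 and 11 CPM. In low-share cells neither passed, with Pcsk1 at 1.18, adjusted p = 0.095 and Resp18 at 0.38, adjusted p = 0.33. Over the whole list 11 of 47 members were higher there and 0 lower, next to 5.75% and 2.98% of all genes. Onecut2, a factor of neural lineages, was lower in brain at 45.7 and 52 CPM in brain and 95.4, 79.6 and 70.8 CPM in liver (-0.86, SE 0.17, edgeR adjusted p = 0.0098), a call lost without brain replicate 1 or brain replicate 2.

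Notch ligands were higher in 3 of 6 cases, with 0 lower, where 13.2% of all genes were higher. Dll3, an inhibitory ligand abundant in this cancer, was at 69.7 and 74.7 CPM in brain and 24.7, 28.9 and 35 CPM in liver (1.18, SE 0.19, edgeR adjusted p = 0.0044). Dll4 was at 42 and 35.7 CPM in brain and 18.1, 18.4 and 24.2 CPM in liver (0.83, SE 0.13, edgeR adjusted p = 0.0041). Dll1 was at 17.6 and 10.4 CPM in brain and 4.76, 4.89 and 6.26 CPM in liver (1.28, SE 0.24, edgeR adjusted p = 0.0079), a call lost without brain replicate 1. The ligands differed in which brain cells carried them: Dll3 was at 137 and 136 CPM in high-share and 44.9 and 46.5 CPM in low-share cells, while Dll1 was at 15.2 and 5.32 against 19.1 and 12.9 CPM. Dll1 (1.52) and Dll4 (0.70) passed in low-share cells, and Dll3 at 0.59, adjusted p = 0.16 did not. Of 15 receptors and processing genes 3 were higher in all cells, near the background, and 0 in low-share cells.

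In all tumour cells, epithelial junction genes were lower more often than higher. Of 31 junction genes 10 were lower and 6 higher (median -0.32), both above the 8.56% and 13.2% of all genes. With keratins, the 11 lower genes became 4 without brain replicate 1 or brain replicate 2 and 6 without liver replicate 2, and the 6 higher became 3 without brain replicate 1 or brain replicate 2. Keratin 8 (Krt8), the intermediate filament of simple epithelia, was at 185 and 213 CPM in brain and 343, 411 and 476 CPM in liver (-1.15, SE 0.14, edgeR adjusted p = 0.0015), and was the 1 of 8 keratins that passed. Dsp, desmoplakin of the desmosome, was at 19.5 and 15.9 CPM in brain and 43.2, 39.2 and 34.1 CPM in liver (-1.25, SE 0.15, edgeR adjusted p = 0.0013). Cdh1, E-cadherin, was at 11.5 and 10.7 CPM in brain and 29.5, 32 and 26.2 CPM in liver (-1.52, SE 0.17, edgeR adjusted p = 0.001). Every brain library was below every liver library for these 3. High-share cells held little of them, with Krt8 at 22 and 17.4 CPM in high-share and 244 and 301 CPM in low-share cells, Dsp at 0.902 and 0.959 against 27.3 and 22.8 CPM and Cdh1 at 0.361 and 0.697 against 15.9 and 15.4 CPM. Between low-share cells the junction list did not lean the same way: 5 of 29 were higher and 2 lower, with a median of -0.09, against 5.75% and 2.98% of all genes. These 3 genes were below low-share liver cells there, at -0.67, adjusted p = 0.025 for Krt8, -0.73, adjusted p = 0.015 for Dsp and -0.99, adjusted p = 0.0074 for Cdh1. Zeb2 and Zeb1, repressors of Cdh1, were higher in brain, Zeb2 at 20.4 and 26 against 7.37, 6.84 and 8.57 CPM (1.505, SE 0.24, edgeR adjusted p = 0.0042) and Zeb1 at 24.9 and 25.5 against 11.1, 8.86 and 11.1 CPM (1.17, SE 0.23, edgeR adjusted p = 0.0082). They did not run against Cdh1 in the 2 kinds of brain cells alike: Zeb2 was at 11.4 and 14.6 CPM in high-share and 23.8 and 31.5 CPM in low-share cells, and Zeb1 at 32.1 and 29.4 against 22.1 and 23.1 CPM. Scaled host RNA equalled 14.7% and 2.87% of the Zeb2 UMIs.

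Homeobox genes, which set regional identity along the body axis, changed in both directions. Of 72 tested, 26 were higher and 12 lower (median 0.42), where 13.2% and 8.56% of all genes were. The higher became 14 without brain replicate 1, 13 without brain replicate 2, 16 without liver replicate 1 and 12 without liver replicate 2. The lower became 2 without brain replicate 1, 4 without brain replicate 2, 6 without liver replicate 1 and 7 without liver replicate 2. All 5 Hoxd genes tested were higher, and of 9 Hoxb genes 4 were lower and 0 higher. Hoxd9 was at 24.3 and 23.9 CPM in brain and 1.44, 1.02 and 0.885 CPM in liver (4.31, SE 0.58, edgeR adjusted p = 0.0028), with Hoxd11 at a log2 fold change of 3.97 and Hoxd8 at 3.70, the last losing its call without liver replicate 1, liver replicate 2 or liver replicate 3. Hoxb9 was at 79.1 and 70.7 CPM in brain and 155, 126 and 136 CPM in liver (-1.01, SE 0.15, edgeR adjusted p = 0.0031). Hoxd9 was at 78.1 and 66.9 CPM in high-share and 2.39 and 3.52 CPM in low-share cells, and Hoxb9, in the reverse order, at 5.77 and 6.36 against 108 and 101 CPM. Pax6, an eye and forebrain factor, was at 12.6 and 12.6 CPM in brain and 0.0405, 0.0627 and 0.0863 CPM in liver (7.48, SE 1.52, edgeR adjusted p = 0.014), a call lost without liver replicate 1 or liver replicate 2, with 39.9 and 38.1 CPM in high-share and 1.46 and 1.06 CPM in low-share cells. In low-share cells 15 of 67 homeobox genes were higher and 3 lower, where 5.75% and 2.98% of all genes were.

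Genes of axons and neural adhesion were higher in part. Of 42 cytoskeleton and growth cone genes 12 were higher and 2 lower (median 0.12), against a background of 13.2% and 8.56%, and 11 were higher in low-share cells, against 5.75%. The tubulin Tubb2b, typical of neurons, was at 22.8 and 27 CPM in brain and 3.14, 1.9 and 2.94 CPM in liver (3.11, SE 0.26, edgeR adjusted p = 0.00043), and Tubb2a at 24.3 and 35.5 against 4.88, 5.1 and 7.66 CPM (2.24, SE 0.24, edgeR adjusted p = 0.00098). Their levels were alike in the 2 kinds of brain cells, with Tubb2b at 23.8 and 20.8 CPM in high-share and 22.9 and 29.5 CPM in low-share cells. Both passed in low-share cells, Tubb2b at 3.37 and Tubb2a at 2.52. Des, the muscle intermediate filament desmin, is on the same list and differed, with 113 and 126 CPM in high-share and 2.46 and 4.73 CPM in low-share cells. Of 41 neural adhesion molecules 9 were higher and 2 lower (0.26), against the same background, and the higher became 5 without brain replicate 2 and 14 without subcutaneous replicate 1. Nrxn3, a presynaptic neurexin, was at 19.96 and 19.6 CPM in brain and 3.32, 2.4 and 1.9 CPM in liver (2.84, SE 0.41, edgeR adjusted p = 0.0031) and passed at 2.86 in low-share cells. Nlgn1, of the neuroligins that bind neurexins, was at 16.3 and 13.7 CPM in brain and 5.65, 3.26 and 4.94 CPM in liver (1.59, SE 0.22, edgeR adjusted p = 0.0023). Ntrk2, the receptor of the neurotrophin Bdnf, was at 10.9 and 12.3 CPM in brain and 1.13, 0.732 and 1.08 CPM in liver (3.45, SE 0.49, edgeR adjusted p = 0.0027), and passed at 3.37, adjusted p = 0.0067 in low-share cells. All of these lay above liver in both brain libraries. S100b, a calcium-binding protein that is also an astrocyte marker, was at 14.7 and 10.05 CPM in brain and 0.729, 0.355 and 0.734 CPM in liver (4.23, SE 0.38, edgeR adjusted p = 0.00052). Astrocyte markers moved with it, as given above. Of 8 oligodendrocyte markers 7 were higher and 0 lower, with a sum of 195 to 261 CPM in brain and 71.9 to 74.0 CPM in liver. Of 5 tested markers of brain neurons 2 were higher and 1 lower. The part of RNA from these 3 host cell types in the values of this paragraph was not tested.

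Synaptic, channel and receptor genes were called in both directions in all tumour cells, each somewhat more often than the 13.2% and 8.56% of all genes. Vesicle and scaffold genes had 13 of 57 members higher and 7 lower (median 0.05). Voltage-gated channels had 15 of 88 higher and 12 lower (-0.02), and neurotransmitter receptors 13 of 50 higher and 7 lower (0.48). The vesicle and scaffold counts were 4 without brain replicate 1, 5 without brain replicate 2, 7 without liver replicate 1, 6 without liver replicate 2 and 8 without liver replicate 3 for higher genes. Those of channels were 4 without brain replicate 1 and 5 without brain replicate 2, and those of receptors 5 without brain replicate 1 or brain replicate 2, 8 without liver replicate 1 or liver replicate 3 and 6 without liver replicate 2. The lower genes moved too. Their vesicle and scaffold count became 0 without either brain library, 2 to 4 when liver replicate 1 or 2 or subcutaneous replicate 2 or 3 was left out, and 11 when subcutaneous replicate 1 was. The lower channels became 4 without brain replicate 1 or brain replicate 2, 7 without liver replicate 1 and 6 without liver replicate 2. The lower receptors became 1 without brain replicate 1 or brain replicate 2, 2 without liver replicate 1 or liver replicate 2 and 4 without subcutaneous replicate 2. In low-share cells higher genes outnumbered lower ones in each list, with 5 of 57 vesicle and scaffold genes higher and 0 lower, 9 of 84 channels higher and 5 lower, and 8 of 46 receptors higher and 0 lower, against 5.75% and 2.98% of all genes. Rims3, a presynaptic scaffold gene in the raised chromosome 4 stretch, was at 39.8 and 42.6 CPM in brain and 15.1, 12.1 and 9.69 CPM in liver (1.63, SE 0.31, edgeR adjusted p = 0.008) and did not pass in low-share cells (0.37, adjusted p = 0.31).

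Glycolytic enzymes were lower more often than higher. The background was 8.56% lower and 13.2% higher. Of 20 genes of glycolysis and glucose uptake 10 were lower and 5 higher (median -0.47), and of 19 other hypoxia targets 4 were lower and 2 higher (-0.37), the higher share being below the background. The 14 lower members of both groups became 4 without brain replicate 1 and 8 without brain replicate 2, and the 7 higher 4 without brain replicate 1. Egln3, an oxygen-sensing prolyl hydroxylase, was at 10.2 and 9.95 CPM in brain and 29.3, 25.2 and 26.9 CPM in liver (-1.54, SE 0.17, edgeR adjusted p = 0.0011). It was at -1.42, edgeR adjusted p = 0.004 in low-share cells. The sign of Egln3 was reversed in the few cells with at most 1 mitosis UMI, as given below. Eno1, the enolase of glycolysis, was at 427 and 339.5 CPM in brain and 579.7, 769 and 861 CPM in liver (-1.05, SE 0.22, edgeR adjusted p = 0.011), a call lost without brain replicate 1 or brain replicate 2 and in low-share cells (-0.68, adjusted p = 0.078). Slc2a1, the glucose transporter Glut1 in the raised chromosome 4 stretch, went the other way at 63.3 and 61.8 CPM in brain and 20.8, 24 and 29.5 CPM in liver (1.23, SE 0.21, edgeR adjusted p = 0.0048), with 156 and 148 CPM in high-share and 27.1 and 21.6 CPM in low-share cells. Aldoc, an aldolase that also marks astrocytes, was higher at 44.2 and 37.5 CPM in brain and 16.3, 20.4 and 16.7 CPM in liver (1.08, SE 0.14, edgeR adjusted p = 0.0017), and at 1.12 in low-share cells. Of 23 sterol pathway genes 1 was higher and 0 lower, both below the background. Of 38 targets of the stress factor Atf4 1 was higher, Cebpb at 175 and 134 against 61.5, 45.6 and 55.2 CPM (1.40, SE 0.17, edgeR adjusted p = 0.0014), and 0 lower.

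Immediate early genes, which respond within minutes to growth factors or to handling, had 6 of 22 members higher and 1 lower (median 0.43), beside 13.2% and 8.56% of all genes. Fos was at 242 and 125 CPM in brain and 47.7, 39.6 and 49.5 CPM in liver (1.89, SE 0.22, edgeR adjusted p = 0.0013), with 453 and 226 CPM in high-share and 157 and 75.5 CPM in low-share cells. Jun, its partner, was at 342 and 205 CPM in brain and 405, 569 and 459 CPM in liver (-0.92, SE 0.26, edgeR adjusted p = 0.033), a call lost without brain replicate 2, liver replicate 1, liver replicate 2, liver replicate 3 or subcutaneous replicate 2. The level of both was higher in brain replicate 1 than in brain replicate 2. Heat shock genes had 3 of 13 lower and 2 higher, the higher share near the background. Hspb1 was at 2.07 and 3.02 CPM in brain and 14.3, 16 and 12.3 CPM in liver (-2.57, SE 0.26, edgeR adjusted p = 0.00084). The sign of Hspb1 was reversed in the few cells with at most 1 mitosis UMI, as given below. The 8 higher members of both groups became 13 without brain replicate 2, and the 4 lower 2 without brain replicate 2, liver replicate 1 or liver replicate 2 and 8 without subcutaneous replicate 1.

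Signalling genes moved singly. In the TGF-beta and BMP list 7 of 28 were higher and 4 lower, where 13.2% and 8.56% of all genes were, the higher becoming 4 without brain replicate 1, liver replicate 1 or liver replicate 2 and the lower 2 without brain replicate 2. Fst, follistatin, which traps activins, was at 26.8 and 23.8 CPM in brain and 3.14, 2.3 and 2.14 CPM in liver (3.21, SE 0.33, edgeR adjusted p = 0.00086), with 91.5 and 65.6 CPM in high-share and 1.79 and 2.97 CPM in low-share cells. Tgfb2 was at 14.5 and 22.8 CPM in brain and 2.17, 1.69 and 2.74 CPM in liver (2.98, SE 0.51, edgeR adjusted p = 0.0065) and passed at 2.45 in low-share cells. Bmp7 was lower at 54.5 and 50.7 CPM in brain and 111, 108 and 113 CPM in liver (-1.19, SE 0.14, edgeR adjusted p = 0.0012), and so was Id2, a target of BMP signals, at 230.0 and 248 CPM in brain and 496, 432 and 443 CPM in liver (-1.05, SE 0.15, edgeR adjusted p = 0.0027). High-share cells were low in Bmp7 (3.79 and 4.18 against 75.2 and 72.9 CPM) but not in Id2, which was at 434 and 371 CPM in high-share and 147 and 187 CPM in low-share cells. Of 37 Wnt genes 5 were higher and 4 lower, near the background of 13.2% and 8.56%, among them the antagonist Sfrp5 at 56.4 and 54.2 CPM in brain and 191, 209.9 and 135 CPM in liver (-1.81, SE 0.30, edgeR adjusted p = 0.0051). The higher Wnt genes became 2 without brain replicate 1, liver replicate 1, liver replicate 2 or liver replicate 3, 1 without brain replicate 2 and 9 without subcutaneous replicate 1, and the lower 1 without brain replicate 1 or brain replicate 2 and 2 without liver replicate 1 or liver replicate 2.

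Cytosolic ribosomal protein genes were lower in part, by small amounts. Their summed level overlapped between sites, at 235032 and 227575 CPM in brain and 277774, 263979 and 230530 CPM in liver. Of 80 cytosolic members 26 were lower and 0 higher (median -0.30), and of 78 mitochondrial ones 6 were lower and 0 higher (-0.13), where 8.56% of all genes were lower, so the mitochondrial share did not exceed the background. Rpl7a was at 1186 and 1179 CPM in brain and 1790, 1669 and 1510 CPM in liver (-0.60, SE 0.11, edgeR adjusted p = 0.006). Rps2 was at 3274 and 3428 CPM in brain and 5214, 4678 and 3983 CPM in liver (-0.58, SE 0.13, edgeR adjusted p = 0.014), a call lost without brain replicate 1 or brain replicate 2. The 32 lower ribosomal genes became 1 without brain replicate 1, 5 without brain replicate 2, 12 without liver replicate 1, 10 without liver replicate 2, 58 without liver replicate 3 and 49 without subcutaneous replicate 1, and 20 with library totals. The cell cycle list had 5 of 72 higher and 0 lower, where 13.2% of all genes were higher, and the higher became 2 without brain replicate 1 or liver replicate 2, 1 without brain replicate 2, 3 without liver replicate 1 or subcutaneous replicate 3 and 11 without liver replicate 3. Mcm5, a subunit of the replicative helicase in the chromosome 8 stretch, was at 325 and 376 CPM in brain and 117, 146 and 182 CPM in liver (1.13, SE 0.15, edgeR adjusted p = 0.0021), and at 0.23, adjusted p = 0.45 in low-share cells. Gadd45a, a growth arrest gene and p53 target, was at 120.3 and 112 CPM in brain and 26.6, 33.6 and 34.8 CPM in liver (1.76, SE 0.18, edgeR adjusted p = 0.00086) and passed at 0.94 in low-share cells.

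Some lists moved together with host markers. Of 29 chemokines and chemokine receptors 14 were higher and 0 lower (median 3.75), where 13.2% and 8.56% of all genes were. With cytokines and their receptors, 22 of 68 were higher, a count that became 8 without brain replicate 1, 12 without liver replicate 1 and 14 without liver replicate 2. Ccl4, a chemokine of activated microglia, was at 34.3 and 1.14 CPM in brain and 0.0607, 0.272 and 0.0863 CPM in liver (6.83, SE 1.78, edgeR adjusted p = 0.039), a call lost without brain replicate 1, liver replicate 1, liver replicate 2, liver replicate 3, subcutaneous replicate 2 or subcutaneous replicate 3. Scaled host RNA equalled 95.9% and 100% of the Ccl4 UMIs. After subtraction of host counts 14 of the 29 chemokine genes could still be tested, and 4 of them were higher. Of 39 genes of the plasminogen system and matrix proteases 15 were higher and 3 lower, against the same 13.2% and 8.56% of all genes. After subtraction 9 of the 34 tested were higher. With serpins 19 of 57 were higher, which became 5 without brain replicate 1, 12 without brain replicate 2, 9 without liver replicate 1 and 6 without liver replicate 2. Over all genes, 1602 of the 1839 higher ones were still higher after subtraction, with 145 not tested. When cells with 2 or more host marker UMIs were left out, 1535 were, with 134 not tested. Of the 482 genes at least 8-fold higher, 333 and 344 were, with 133 and 118 not tested. Neither setting used markers of astrocytes or oligodendrocytes, and the part of their RNA was not tested.

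**Figure D5:**
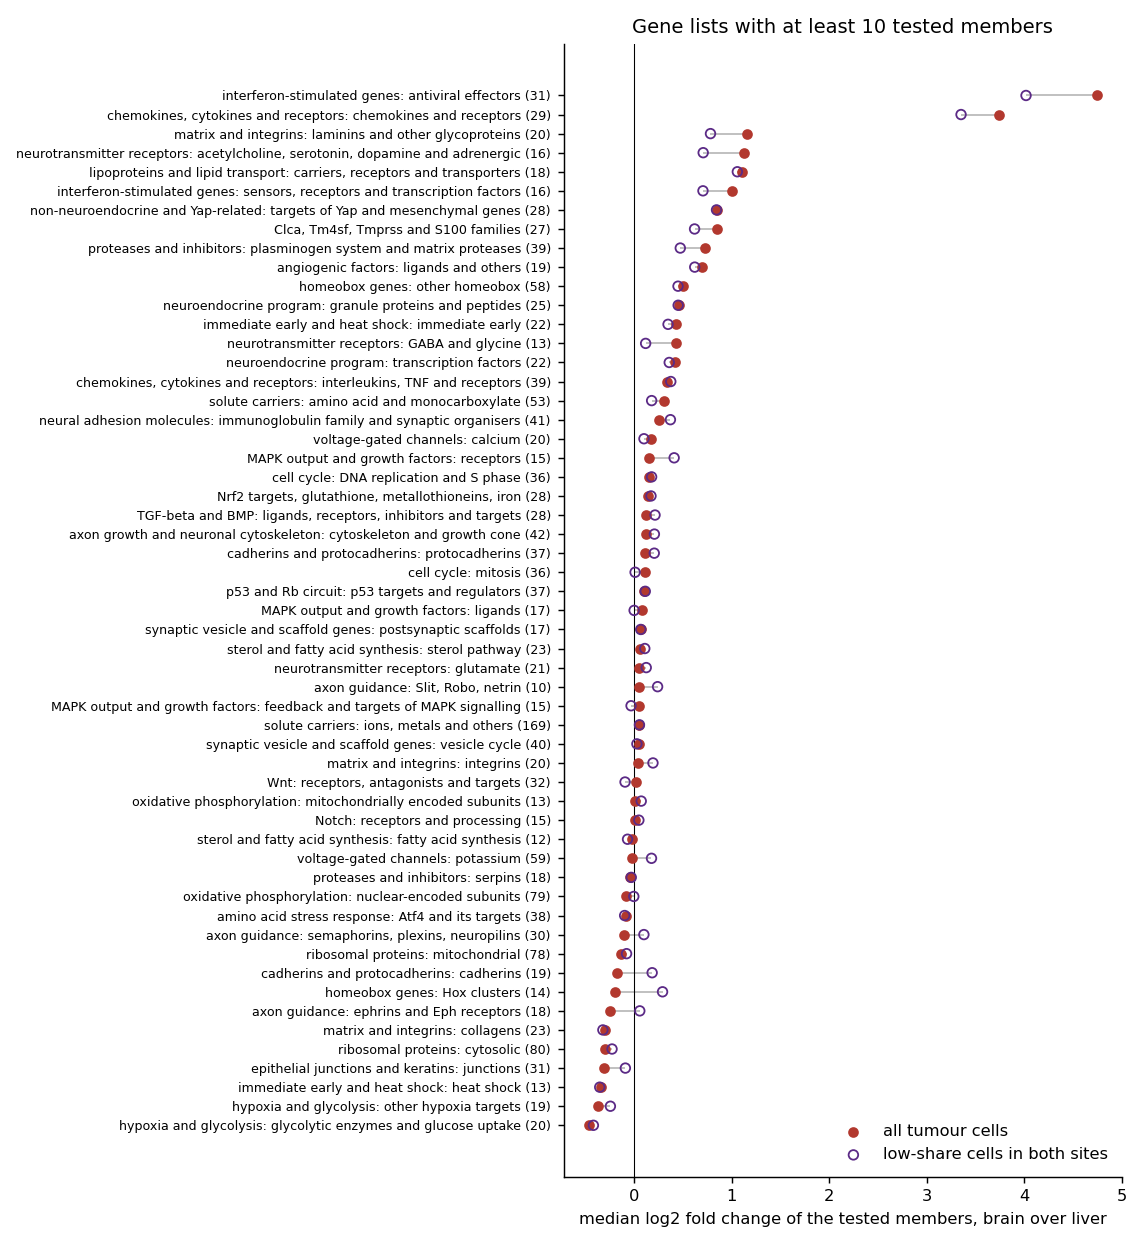
Median log2 fold change of brain over liver for each gene list with at least 10 tested members (number in brackets), in all tumour cells (filled) and in low-share cells of both sites (open). Antiviral effectors and chemokines stand furthest to the right in both, and the Hox clusters are among the lists that change side of 0 between the 2 sets of cells.

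For 6 of the genes named above, the same UMIs are given as shares of cells, as a description and not as further support. With each cell thinned to 3000 UMIs, Usp18 was detected in 6.41% and 8.03% of tumour cells in brain and 0.0247% to 0.0737% in liver, and Bst2 in 9.06% and 10.7% against 0.242% to 0.345%. Tm4sf1 was detected in 10.4% and 16.2% against 0.442% to 0.666%, and En1 in 11.5% and 11.1% against 0.441% to 0.666%. Igfbp2 was detected in 43.3% and 33.4% of brain and 88.0% to 89.5% of liver tumour cells, and Kcnh3 in 3.67% and 5.03% against 21.2% to 28.6%. Neither site overlapped the other for any of the 6 genes. Thinning left out 48 to 180 shallower cells per library. Without it the share for Usp18 was 12.4% and 14.1% in brain and 0.0972% to 0.263% in liver.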

How the data were processed

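Droplet-based 3' RNA sequencing was done on 2 brain, 3 liver and 3 subcutaneous allografts. Per the submitters' processing notes the authors used Cell Ranger and STAR with the mm10 genome, and the deposited matrices hold UMI counts per gene and cell, not normalized (the file headers name software version 3.0.0). The annotation release is not given in the sources used here. From these counts, cells were kept by the rule given at the start of the report, doublets were not removed, and the UMIs of tumour cells were summed per library. Sums were fitted for all 3 sites together with edgeR 4.0.16 in R 4.3.3 (TMM scaling, filterByExpr, quasi-likelihood test, residual degrees of freedom 5), and p-values were adjusted by Benjamini-Hochberg over all 13931 genes. On simulated counts for this comparison, with 13708 genes, the fit found 55.6% of 2-fold and 97.0% of 4-fold changes, and 3.82% of its calls were false. The simulation gave every gene the same spread and changed only 200 genes, so these shares need not hold for the data. Libraries held 21689091 to 62047017 tumour UMIs.

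Genes were named by rule. Of called genes with a mean of at least 10 CPM, no overlap of libraries and no place in a host marker list, the 12 with the largest fold change and the 6 with the largest difference in CPM were taken in each direction. Of each gene list, up to 3 members per direction of at least 5 CPM were taken. Members, lists and rules were chosen with earlier results of these data known, and the alternatives for host RNA, mitosis under 0.2%, high-share cells and cells of at least 3000 UMIs were added after seeing the data. DESeq2 1.42.0 served as an alternative test. Host RNA was taken as the summed counts of cells with under 0.1% eGFP and Mycl, scaled by the median ratio of macrophage and microglia markers (20 in each brain library), which came to 1.80% and 0.391% of the tumour UMIs in brain. RefSeq gave the promoters. Some genes are not reported here.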

Additional observations from a re-analysis of the deposited data

How the results depend on the processing

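Beside the 3032 genes reported, DESeq2 called 3528, edgeR with the size factors of DESeq2 3016, the test with no filter on low counts 2870 and the test of only the brain and liver libraries 3679. Fewer genes were tested with a minimum mean of 10 CPM (1244 called, 697 higher and 547 lower), and few cells were left with at most 1 mitosis UMI (378, 238 and 140). Low-share cells gave 1196, 788 and 408, and library totals 716 lower genes. When 1 library was left out, 1112 to 4557 genes were called, 817 to 2648 higher and 271 to 1909 lower, and the difference in tumour cell share was -26.0 to -5.59 percentage points around -15.8.

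With the replicate number as a block 2482 genes were called, 1457 higher and 1025 lower. Same-numbered libraries deviated with r = -0.152 and -0.177 across genes. With 2 brain libraries the deviations from their mean mirror each other, and brain replicate 2 with liver replicate 1 had 0.152. These values therefore cannot show or exclude pairing. The labels do not state pairs, and the numbers were not taken as pairs.

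Among named genes, signs reversed with at most 1 mitosis UMI for Egln3 (0.0511), Hspb1 (2.72), Hspa1a (1.66), Phlda1 (0.0892) and Sfrp1 (0.20), and in low-share cells for Ybx1 (-0.17), Slc2a1 (-0.0669) and Sfrp1 (0.14). The cause was not tested. Unthinned, the differences in share of cells were 13.1 percentage points for Usp18, 16.4 for Bst2, 22.1 for Tm4sf1, 21.0 for En1 and -41.0 for Kcnh3, against 7.16, 9.596, 12.8, 10.8 and -21.0 at equal depth. With 2 brain libraries, a 2-fold change was found in 55.6% of simulated cases, so smaller differences can be missed.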

Other observations

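Cells above the limit for the chromosome 4 stretch but below that for chromosome 8 were not more frequent in brain. They numbered 35 and 56 in brain replicates 1 and 2 and 96, 80 and 58 in the liver libraries. Cells above the limit for chromosome 8 alone numbered 30 and 73 in brain and 6, 2 and 12 in liver. In subcutaneous replicate 1, 356 of 3983 cells were above both limits, against 42 of 6103 and 37 of 4724 in the other subcutaneous libraries. Their median share from the chromosome 8 stretch was 3.43%, and from the end of chromosome 4 it was 0.0951%, next to 0.0943% and 0.0935% in high-share cells of brain.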
